A study of Mus musculus with 18 samples.

Results

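The genes that encode the main structural proteins of elastic fibres and their microfibrils were followed in cultured mouse embryonic fibroblasts (MEFs) given uracil. The 10 genes, out of 55487 gene identifiers in the count table, were chosen by name, with earlier results of these data known: Eln, Fbn1, Fbn2, Fbln1, Fbln2, Fbln5, Efemp1, Efemp2, Mfap2 and Mfap5. All 10 were among the 13865 genes that passed the filter on low counts. MEFs, the connective-tissue cells that grow from dissociated embryos, were kept for 24 h in growth medium with no added uracil (control), with 10 µM uracil or with 30 µM uracil, and total RNA was sequenced after depletion of ribosomal RNA. Each dose had 6 libraries, which the labels number 1 to 6, so that each number stands for 3 libraries, 1 per dose. The labels give neither the strain, age or passage of the embryos and cells nor what a number stands for, and they do not say whether libraries came from separate embryos or cultures, although the study speaks of biological replicates. P-values therefore measure the spread between these libraries, which may be technical.

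Elastic fibres let skin, lung and large arteries stretch and recoil. Each fibre has a core of cross-linked elastin laid down on a scaffold of microfibrils, long beaded polymers of fibrillin. Fibulins tether elastin to the microfibrils and bring in the lysyl oxidases that cross-link it, microfibril-associated glycoproteins decorate the fibrillin polymers, and microfibrils also hold latent TGF-beta in the matrix. Fibroblasts and smooth muscle cells are the usual makers of these proteins.

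Between 3963932 and 20775298 read pairs per library were counted in genes. In 3 libraries the uncounted reads stood apart: the unaligned share of pairs was 54.2% for control replicate 1, 37.9% for replicate 6 at 30 µM and 5.24% for replicate 6 at 10 µM, against 1.72% to 3.59% in the other 15, which held 11600038 counted pairs or more. The study set aside a vehicle library and a library of the higher uracil dose because they held human RNA, and kept all of the lower dose. The labels do not name the libraries removed, so all 18 were kept in the main fits, which therefore hold them, and results that rest on these 3 libraries are also given without them. Levels are given as CPM, a gene's read pairs scaled to a common library size and adjusted for library composition by the TMM method. All 10 fibroblast markers examined were detected in every library, with medians from 3.27 CPM (Lum) to 9603 CPM (Col1a2). Their summed level was 25619 to 29785 CPM in the 15 libraries and up to 57302 in 30 µM replicate 6. The 7 smooth muscle markers examined were detected in every library too, so detection goes with the label of fibroblast but does not set it apart.

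The members were spread over 10 loci (GRCm39): Eln on chromosome 5 (134731445 to 134776322, minus strand), Fbn1 on chromosome 2 (125142514 to 125349913, minus strand), Fbn2 on chromosome 18 (58141695 to 58343645, minus strand), Fbln1 on chromosome 15 (85090150 to 85170737, plus strand), Fbln2 on chromosome 6 (91189437 to 91249522, plus strand), Fbln5 on chromosome 12 (101712556 to 101785429, minus strand), Efemp1 on chromosome 11 (28803150 to 28876825, plus strand), Efemp2 on chromosome 19 (5523975 to 5532545, plus strand), Mfap2 on chromosome 4 (140737729 to 140743295, plus strand) and Mfap5 on chromosome 6 (122470878 to 122508875, plus strand). All are protein coding. Exons of Eln, Fbn1 and Efemp2 share 423, 2442 and 173 bases with genes on the opposite strand (Gm30003, Gm9913 and Mus81). The strand setting of the counting is not given in the sources used here, so reads from these stretches could have been set aside as ambiguous and counted for neither gene.

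Level per length, as CPM per kb of merged exons over the 15 libraries, spanned more than 2 orders of magnitude. Fbln2, a large fibulin that binds fibrillin and elastin, was the most abundant member at 506 ± 36.1 CPM per kb (SD, n = 15), above 99.7% of the 13784 genes ranked. Fbn1, the principal fibrillin of postnatal microfibrils, followed at 192 ± 29.6. Next came Efemp2 (fibulin-4, which binds lysyl oxidase and is needed for elastin cross-linking) at 51.5 ± 4.17 and Fbln5 (fibulin-5, which joins elastin to cells and microfibrils) at 34.1 ± 3.47. Their ranges did not overlap, with Efemp2 at 42.6 or more and Fbln5 at 37.8 or less.

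The other 6 members were lower. Fbn2, the fibrillin best known from developing tissue, stood at 26.1 ± 2.64 CPM per kb. Efemp1 (fibulin-3) stood at 18.8 ± 2.66 and Fbln1, a fibulin of elastic fibres and basement membranes, at 7.41 ± 0.613. Neighbours in this order overlapped for Fbn2 (18.4 or more) and Efemp1 (21.9 or less) and for Fbln1 (6.11 or more) and Mfap5 (6.95 or less), while Fbn2 stayed at 28.8 or less, below every Fbln5 value (29.7 or more). The 3 lowest levels per length were those of Mfap5 (4.27 ± 1.90), Eln (2.97 ± 0.889) and Mfap2 (1.73 ± 0.628). Mfap5 and Mfap2 encode the microfibril-associated glycoproteins MAGP-2 and MAGP-1, and Eln encodes tropoelastin, the soluble unit of elastin. These 3 could not be ranked beyond their spread, since their ranges ran from 1.78 to 6.95, from 0.616 to 4.48 and from 0.666 to 2.48. Eln thus stood near the 41.8th percentile of ranked genes while its scaffold gene Fbn1 stood at the 98.7th. Dividing by the longest transcript in place of merged exons raised the 18-library mean of Eln from 2.67 to 5.51 CPM per kb and put Fbn2 (46.7) above Fbln5 (41.1).

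**Figure D1:**
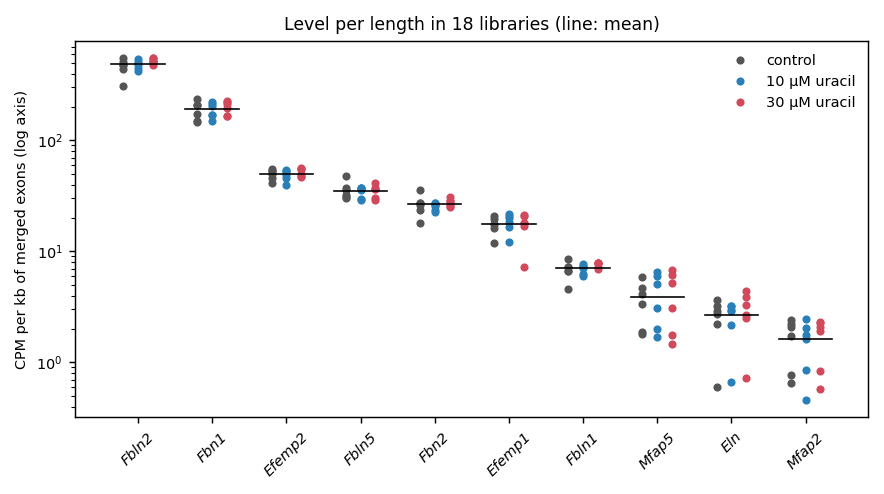
Level of each member as CPM per kb of merged exons (log axis) in the 18 libraries, with points coloured by uracil dose and a line at the mean of all 18. Fbln2 (mean 489) and Fbn1 (191) stand above the other members at every dose, and Mfap5, Eln and Mfap2 each have libraries far below their mean.

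RefSeq promoter windows (250 bases before the first listed start, GRCm38.p6) were used for 7 of the 10 members, namely Fbn1, Fbln1, Fbln2, Fbln5, Efemp1, Efemp2 and Mfap2. Eln and Mfap5 had no window of that length in the set, and Fbn2 was left out because members on chromosome 18 were skipped. The promoters of these members were therefore not examined. Short motifs were searched on both strands. The GC box, GGGCGG, which binds SP-family factors, lay in 6 of the 7 windows, all but that of Fbln1, and in 32.9% of the 27025 windows of the same length across genes. The TATA box letters TATAAA (12.97% of all windows) and the TEAD motif GGAATG (12.6%) lay in 0 of the 7. The letters TGANTCA, a loose form of the AP-1 motif in which N is any base, lay in 6.87% of all windows. They lay in 1 of the 7, Efemp1, as TGAATCA. No motif contains another, although ends such as GG and TG are shared so that neighbouring matches can overlap, and a match is a description of the sequence and not a shown binding site.

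The windows of Fbn1, Fbln5, Efemp2 and Mfap2 are printed because these genes varied together across the 15 libraries, as described further on, and that of Efemp1 because it varied differently. Capitals mark the GC boxes (GGGCGG, or CCGCCC where the motif is on the other strand) and, in Efemp1, the match to TGANTCA as well. Fbn1 is from chr2:125506439-125506688 (minus strand), Fbln5 from chr12:101819120-101819369 (minus strand), Efemp2 from chr19:5473696-5473945 (plus strand), Mfap2 from chr4:141010431-141010680 (plus strand) and Efemp1 from chr11:28852955-28853204 (plus strand).

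Fbn1: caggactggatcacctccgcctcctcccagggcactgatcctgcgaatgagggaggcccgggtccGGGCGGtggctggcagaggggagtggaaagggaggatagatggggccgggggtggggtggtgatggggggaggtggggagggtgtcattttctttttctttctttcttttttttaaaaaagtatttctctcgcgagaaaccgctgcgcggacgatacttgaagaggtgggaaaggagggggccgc

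Fbln5: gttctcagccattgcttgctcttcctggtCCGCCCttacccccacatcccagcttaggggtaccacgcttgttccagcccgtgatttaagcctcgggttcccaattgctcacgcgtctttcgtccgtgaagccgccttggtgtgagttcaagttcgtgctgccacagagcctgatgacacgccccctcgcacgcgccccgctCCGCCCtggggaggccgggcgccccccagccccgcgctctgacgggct

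Efemp2: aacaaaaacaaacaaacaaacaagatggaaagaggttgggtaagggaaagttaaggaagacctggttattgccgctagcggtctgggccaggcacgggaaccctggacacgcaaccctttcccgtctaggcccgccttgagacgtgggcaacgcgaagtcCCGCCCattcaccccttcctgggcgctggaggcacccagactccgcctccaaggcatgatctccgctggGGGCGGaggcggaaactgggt

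Mfap2: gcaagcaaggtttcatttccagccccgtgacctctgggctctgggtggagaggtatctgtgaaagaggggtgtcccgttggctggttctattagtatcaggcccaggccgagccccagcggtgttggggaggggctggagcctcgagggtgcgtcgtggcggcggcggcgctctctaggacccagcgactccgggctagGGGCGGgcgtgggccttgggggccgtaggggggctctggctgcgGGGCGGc

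Efemp1: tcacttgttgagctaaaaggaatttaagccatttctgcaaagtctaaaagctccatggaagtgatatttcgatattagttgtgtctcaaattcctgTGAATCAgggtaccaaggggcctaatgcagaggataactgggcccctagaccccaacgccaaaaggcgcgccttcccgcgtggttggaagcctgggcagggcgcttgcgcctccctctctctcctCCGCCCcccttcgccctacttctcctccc

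The GC content of these windows was 59.2% for Fbn1, 65.2% for Fbln5, 59.2% for Efemp2, 68.8% for Mfap2 and 53.6% for Efemp1, against a median of 52% over all windows. Fbln5, Efemp2 and Mfap2 held 2 GC boxes each, with the nearest one of Mfap2 at positions -7 to -2 from the start and the nearest one of Fbln5 at -48 to -43. Fbn1 held 1, at -185 to -180, and Efemp1 held 1, at -29 to -24, with its match to TGANTCA at -154 to -148.

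The first comparison asked whether uracil changed the amount of these transcripts. None of the 10 members differed between control and 10 µM uracil, between control and 30 µM uracil, between the uracil doses or in a test of any difference among the 3 doses (edgeR's quasi-likelihood test with Benjamini-Hochberg adjustment over all genes, threshold 0.05). The smallest adjusted p of a member was 0.931, for Fbln2 at 30 µM. These were also the results for genes in general, with 0% of the 13865 genes past the threshold in each of the 4 tests. These tests held dose alone. At an unadjusted p under 0.05 the members gave 0 of 10 in each of them, against 0.692% of all genes at 10 µM, 4.29% at 30 µM, 2.33% between the doses and 1.53% for any difference. With the replicate number as a block, Fbln2 at 30 µM and Eln between the doses were under 0.05 unadjusted, as given in the closing section. DESeq2 and limma voom with quality weights also gave 0 of 10 at the adjusted threshold in the 4 tests.

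Eln had its lowest, median and highest library at 4.96, 23.3 and 30.3 CPM in control, 5.49, 24.3 and 26.9 at 10 µM and 6.03, 24.7 and 36.7 at 30 µM. In each dose 1 library stood far below the other 5, and the 3 dose groups overlapped almost fully. The log2 fold change of Eln at 30 µM was 0.21 ± 0.42 (SE) in the model with dose alone, with a 95% interval from -0.67 to 1.09. Mfap2 and Mfap5 had intervals of similar width at 30 µM, from -0.78 to 0.94 and from -0.73 to 1.10. These widths belong to the model with dose alone. With the replicate number as a block, the intervals at 30 µM were -0.0015 to 0.36 for Eln, -0.19 to 0.22 for Mfap2 and -0.14 to 0.28 for Mfap5. That of Fbn2 was then -0.14 to 0.30.

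The other members gave tighter limits in the model with dose alone. Fbn1 ran from 1790 to 2836 CPM in control (median 2308), from 1812 to 2669 at 10 µM (median 2285) and from 1991 to 2731 at 30 µM (median 2497). The uracil libraries of Fbn1 lay within the control range at both doses, but the top of that range was control replicate 1. The next highest control library held 2534 CPM, and the highest uracil libraries (2669 CPM at 10 µM and 2731 CPM at 30 µM) lay above it. The log2 fold change of Fbn1 was 0.088 ± 0.13 at 30 µM, with an interval from -0.18 to 0.36. Efemp2, with medians of 280, 277 and 284 CPM by rising dose, had the narrowest interval of the members, from -0.12 to 0.24 at 30 µM.

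Fbln2 had the smallest p of the members. Its control libraries ran from 2147 to 3877 CPM (median 3370), those at 10 µM from 2989 to 3794 (median 3431) and those at 30 µM from 3344 to 3889 (median 3650). The lowest control library was control replicate 1, and the other control libraries overlapped the 30 µM libraries. The log2 fold change at 30 µM was 0.18 ± 0.11 (interval -0.041 to 0.40, unadjusted p = 0.105, edgeR). Without the 3 libraries with more unaligned reads it was 0.061 ± 0.063 (unadjusted p = 0.345, edgeR), and the smallest p then belonged to Efemp2 (0.11 ± 0.068, unadjusted p = 0.119, edgeR).

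The remaining members also stayed within their spread at 30 µM, with log2 fold changes of 0.15 ± 0.10 for Fbln1, 0.061 ± 0.11 for Fbn2, -0.019 ± 0.11 for Fbln5 and -0.015 ± 0.20 for Efemp1. Counted by sign alone, 5 of 10 members were above 0 at 10 µM, where 52.7% of all genes were, and 8 of 10 at 30 µM, where 53.5% of all genes were. Over the members, log2 fold changes had a median of -0.0015 with 10 µM and 0.085 with 30 µM, beside 0.0059 and 0.012 for all genes. Between the doses 9 of 10 members were higher at 30 µM, beside 52.1% of all genes, with a median of 0.094. Without the 3 libraries, 8 of 10 members were above 0 at 10 µM (49.5% of all genes, members' median 0.088), 10 of 10 at 30 µM (48.5% of all genes, median 0.13) and 8 of 10 between the doses (51% of all genes, median 0.051). In that set number 6 is left in control alone and number 1 in the uracil groups alone, so the dose and these numbers are partly confounded. These comparisons share their control or 30 µM libraries, and single members passed no test in them. The members also varied together, with 42 of 45 pairs positively correlated over the 15 libraries. Their signs are therefore not independent of each other.

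In exact permutation tests of mean CPM, 6 libraries against 6 (two-sided, 924 permutations, smallest possible p 0.00216), the raw p of the members ran from 0.606 to 0.965 at 10 µM and from 0.0887 (Fbln2) to 0.929 at 30 µM, and every adjusted p over the 20 tests was 0.965. The CPM ranges of control and uracil libraries overlapped for all 10 members at both doses, as they did for nearly all genes, with 0.0649% of genes apart at 10 µM and 0.144% at 30 µM.

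**Figure D2:**
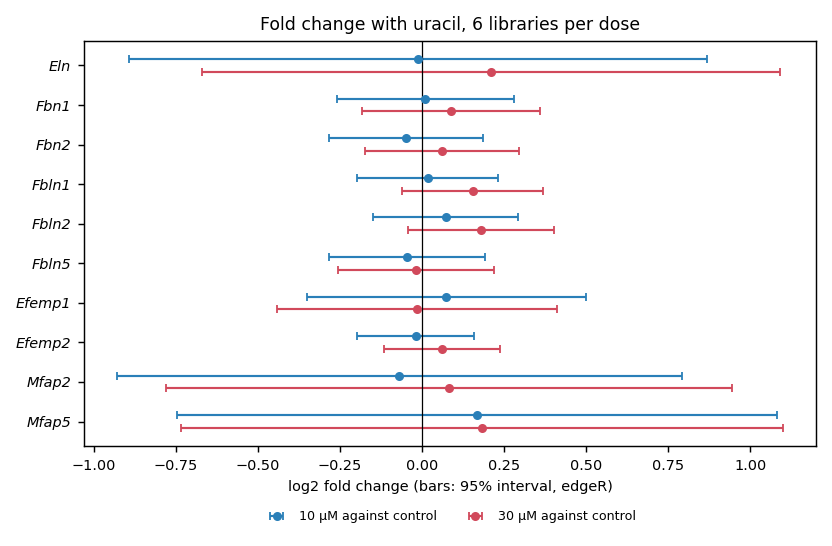
Log2 fold change of each member at 10 µM (blue) and 30 µM (red) uracil against control, from 6 libraries per dose, with bars for the 95% interval (edgeR). The model holds dose alone. Every interval includes 0, and those of Eln, Mfap2 and Mfap5 are the widest in this model.

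The second comparison asked how far the members varied with the replicate number, in a model that also held dose. Here 7 of the 10 members differed among the 6 numbers, beside 12.6% of all genes. They were Eln (adjusted p = 1.29e-07), Mfap5 (3.16e-07), Mfap2 (4.21e-07), Efemp1 (0.000996), Fbn1 (0.00228), Efemp2 (0.00428) and Fbln5 (0.0306), all by edgeR's quasi-likelihood test with Benjamini-Hochberg adjustment over 13865 genes. Fbln2 (0.335), Fbn2 (0.494) and Fbln1 (0.745) did not pass. Without the 3 libraries with more unaligned reads, 9 of 10 passed, beside 20.8% of all genes, and Fbln1 (adjusted p = 0.507, edgeR) was the exception. Replicate number accounted for a median of 84.8% of the variance of the members' log2 CPM and dose for 3.16%, beside 40.8% and 7.91% for all genes. Over the 15 libraries the members' median was 96.2% for number and 10.7% for dose, beside 52.2% and 10.6% for all genes. These shares are not adjusted for there being 6 numbers and 3 doses, which alone gives number the larger share. Each is therefore to be set beside that of all genes and not beside the other.

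The elastin gene changed most. The 3 libraries numbered 6 held Eln at 4.96, 5.49 and 6.03 CPM (control, 10 µM, 30 µM), and those numbered 5 held it at 30.3, 26.9 and 36.7 CPM. No library of another number fell below 18.1 CPM, so number 6 stood apart at all 3 doses, with a mean 5.69-fold below that of number 5. Numbers 5, 1, 4 and 2 overlapped as neighbours in the order of means (31.3, 27.0, 25.3 and 24.2 CPM), and number 3 (19.1) lay below them without overlap with number 2. The low value of number 6 was also seen outside the doubtful libraries, since control replicate 6, with 2.49% of pairs unaligned, was the lowest of all 18. Without the doubtful libraries, number 6 is that 1 library alone and has no spread of its own.

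Among the microfibril scaffold genes, Fbn1 fell into a high and a low set of numbers. The libraries numbered 1 held 2836, 2669 and 2605 CPM (control, 10 µM, 30 µM), and those numbered 5 held 1808, 1812 and 2030. Numbers 1, 2 and 3 (means 2703, 2617 and 2568) overlapped each other and lay above every library of numbers 4, 5 and 6 (means 2044, 1883 and 2084). The largest difference between number means was 1.44-fold. Fbn2 did not follow this split beyond its spread, because the libraries numbered 6 ran from 352 CPM in control to 610 CPM at 30 µM and those numbered 1 from 520 to 697, and the extremes were control replicate 6, control replicate 1 and 30 µM replicate 6. Without the 3 libraries, Fbn2 passed the test of number (adjusted p = 2.06e-05, edgeR) with 352 CPM in the only library numbered 6 and 445 or more in the others. That library is assumed to vary like those of the other numbers, which supply the spread in the fit.

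The microfibril-associated glycoproteins varied more than the scaffold. Mfap2 stood at 8.35, 8.53 and 8.01 CPM in the libraries numbered 1, at 2.71, 3.00 and 2.91 CPM in those numbered 5 and at 2.27, 1.60 and 2.01 CPM in those numbered 6. Numbers 2, 3 and 4 (means 7.59, 6.79 and 6.33) overlapped as neighbours below number 1, while numbers 5 and 6 were apart from them and from each other. The difference between numbers 1 and 6 was 4.23-fold, and the counts behind Mfap2 were low, from 13 to 171 pairs per library.

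Mfap5 stood at 40.7, 41.3 and 42.5 CPM in the libraries numbered 2 and at 12.4, 11.7 and 10.1 CPM in those numbered 6, a 3.65-fold difference of means. Every library of numbers 1, 2 and 3 was at 28.8 CPM or above and every library of numbers 4, 5 and 6 at 23.0 CPM or below. The lowest value in the first set belonged to control replicate 1, beside 45.4 and 47.4 CPM in the uracil libraries of the same number. Number 4 (mean 21.8) stood between the high numbers and numbers 5 and 6 (13.04 and 11.37), which overlapped.

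The fibulins divided. Efemp2, the fibulin of elastin cross-linking, stood at 298, 294 and 309 CPM in the libraries numbered 1 and at 226, 216 and 253 CPM in those numbered 6, and numbers 1, 2 and 3 lay above numbers 4, 5 and 6 without overlap. Fbln5 stood at 224, 215 and 213 CPM in the libraries numbered 4 and at 220, 213 and 220 CPM in those numbered 5, below every library of the other 4 numbers (233 or more). Its highest library was control replicate 1, at 349 CPM. The call for Fbln5 was the least steady of the 7: it was lost in 13 of 26 alternatives, each of which left out a single library, with adjusted p up to 0.0848 (edgeR), and was made without the 3 libraries (4.49e-06).

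Efemp1 had its lowest mean in number 6, as did Eln, Efemp2, Mfap2 and Mfap5, and did not have the split of Fbn1. It stood at 53.4, 55.5 and 32.8 CPM in the libraries numbered 6 and at 94.4, 97.9 and 96.2 CPM in those numbered 4. The libraries numbered 3 (73.2, 74.6 and 76.4) lay between, apart from both neighbours. The number means of Efemp1 spanned 2.04-fold.

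Fbln1 and Fbln2 showed no number that stood apart, as all neighbouring numbers overlapped. Fbln1 ran from 27.5 to 39.1 CPM outside control replicate 1, which held 21.0 CPM. Fbln2 ran from 2989 to 3889 CPM outside the same library, which held 2147 CPM. Their number means spanned 1.17-fold and 1.26-fold, beside a median of 1.31-fold for all genes. Fbln2 passed without the 3 libraries (adjusted p = 0.0350, edgeR), and Fbln1 did not.

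**Figure D3:**
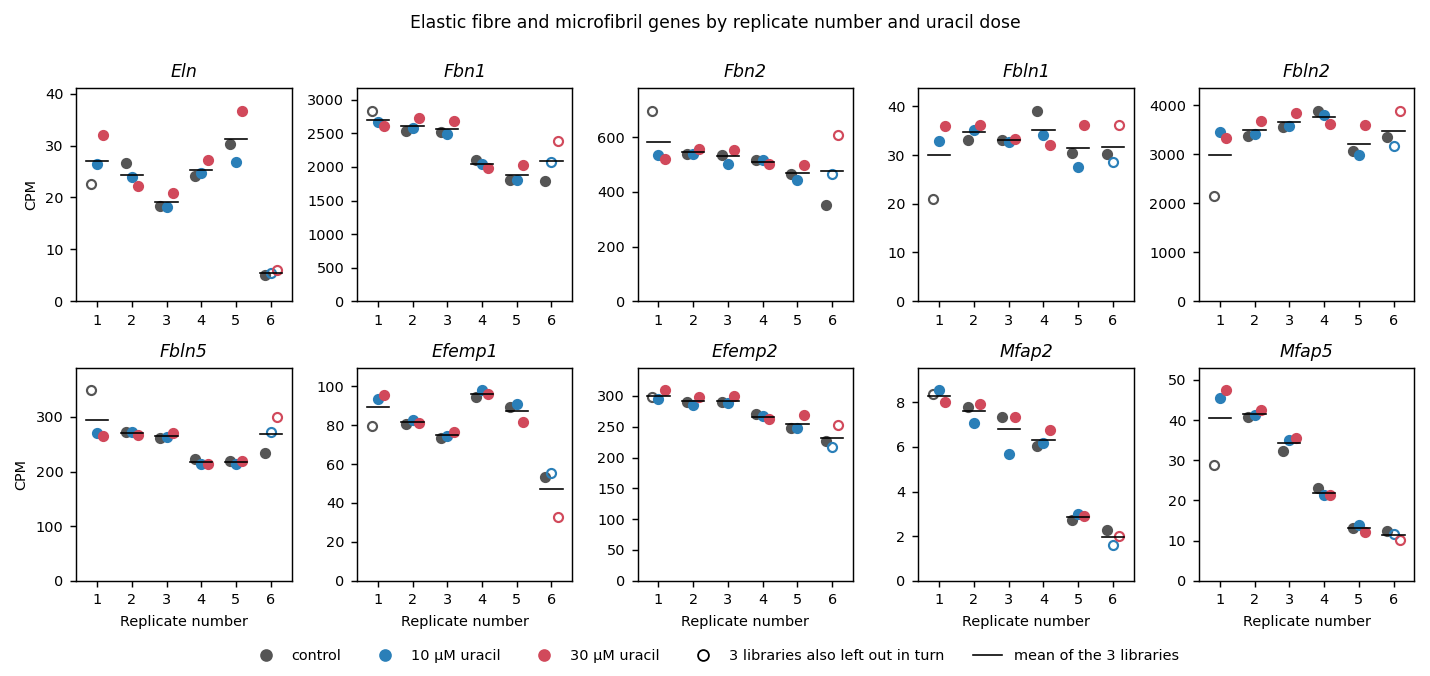
CPM of each member by replicate number, with 3 libraries per number coloured by dose, a line at their mean and each axis starting at 0. Eln and Efemp1 are lowest in number 6 (5.50 and 47.2 CPM), Mfap2 and Mfap5 are lowest in numbers 5 and 6, and open points mark control replicate 1, 10 µM replicate 6 and 30 µM replicate 6.

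Markers of other cell types also moved with the number, given here for numbers 1 to 3 and 4 to 6, a division drawn after the values were seen. The summed level of 8 mesothelial markers (such as Msln, Upk3b and Wt1) was 85.1 to 120 CPM in the libraries numbered 1 to 3 and 183 to 274 CPM in those numbered 4 to 6, with at most 1 of the 8 at 0 in a library. For 5 epithelial markers, chiefly Krt14, it was 4.58 to 7.73 against 15.2 to 34.9 CPM, and for 6 cartilage markers, chiefly Col2a1 and Sox9, 29.6 to 61.4 against 13.6 to 29.1 CPM. The defining epithelial marker Epcam was at 0 in 4 libraries and at most 1.69 CPM, and the cartilage marker Col9a1 was at 0 in all 18. Their part in the differences among numbers was not tested, and in RNA from whole cultures fewer cells of a type and less RNA per cell cannot be told apart. Smooth muscle markers (7 genes, among them Acta2 and Tagln) summed to 4737 to 5548 CPM in numbers 1 to 3 and 4042 to 5263 in numbers 4 to 6, which overlapped. Endothelial markers stayed at 12.03 CPM or below, macrophage and leukocyte markers at 3.63 or below and skeletal muscle markers at 0.309 or below. By dose, mesothelial sums overlapped (85.1 to 240 CPM in control, 110 to 235 at 10 µM and 104 to 274 at 30 µM).

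Several members varied together across the 15 libraries. Pearson's r of log2 CPM was 0.64 to 0.95 in the 10 pairs among Fbn1, Fbln5, Efemp2, Mfap2 and Mfap5 (median 0.88), a set picked after its values were seen, beside a median of 0.47 and a range from -0.27 to 0.95 over all 45 pairs. Over all 18 libraries the same 10 pairs ran from 0.24 to 0.92 (median 0.80) and all 45 pairs had a median of 0.30. Fbln5 was then less like the rest of the set, at 0.24 with Mfap2, 0.37 with Mfap5 and 0.38 with Efemp2. Over the 15, Fbn1 and Mfap5, a fibrillin and a glycoprotein that binds it, gave the highest value (0.95). Eln and Efemp1 gave 0.85 with each other (0.87 over all 18). Eln gave 0.18 with Fbn1 (0.18 over all 18) and 0.18 with Mfap5 (0.49 over all 18). It gave 0.45 with Efemp2 and 0.31 with Mfap2, but 0.65 and 0.63 over all 18, so its contrast with the set was weaker there. Control replicate 6, the only library numbered 6 among the 15, was far the lowest for both Eln (4.96 CPM, others 18.1 or more) and Efemp1 (53.4 CPM, others 73.2 or more). Their r without that library was not computed. Fbn2, outside the set, gave 0.87 with Efemp2, 0.83 with Mfap2, 0.76 with Fbn1, 0.73 with Mfap5 and 0.47 with Fbln5 over the 15. It also gave 0.68 with Eln and 0.54 with Efemp1 (0.30 and 0.014 over all 18). The set and the pair were therefore not cleanly apart. Fbln1 and Fbln2 gave 0.69 (0.91 over all 18). Efemp1 and Fbln5 gave the lowest value, -0.27. These values describe libraries that share replicate numbers and are not independent points.

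**Figure D4:**
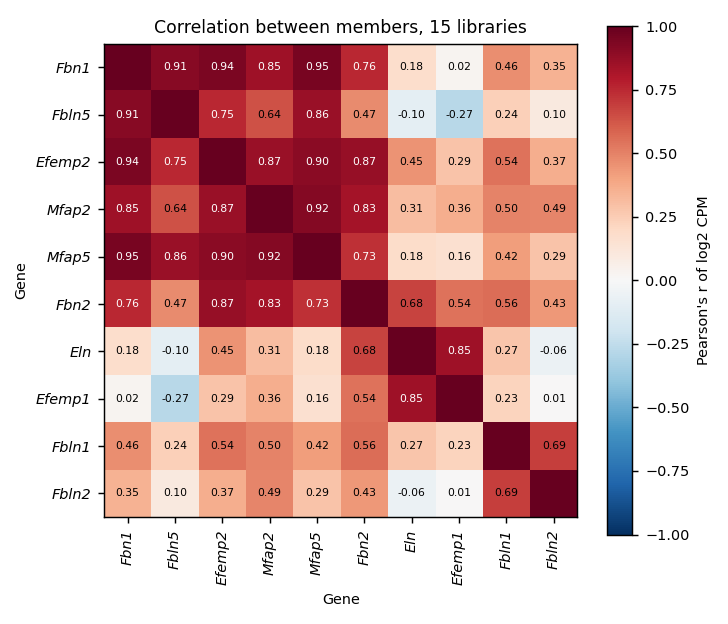
Pearson's r of log2 CPM for each pair of members over the 15 libraries, red for positive and blue for negative values. The first 5 genes, a set picked after its values were seen, gave r from 0.64 to 0.95. Fbn2, placed next to them, gave 0.47 to 0.87 with these 5 and 0.68 with Eln. Eln and Efemp1 gave 0.85, with control replicate 6 far the lowest library for both.

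Among 13005 genes with a mean of at least 1 CPM over the same 15 libraries, those most like each member by r were listed, 3 per member. For Fbn1 they were the matrix collagen genes Col6a3 (0.99) and Col12a1 (0.99) and the secreted-protein gene Oaf (0.98). For Mfap5 they were Coch (0.99), Crispld2 (0.99) and Ppbp (0.99), for Fbln5 Masp1 (0.99), Enpp1 (0.98) and Adamts1 (0.96), for Efemp2 Maged2 (0.97), Megf6 (0.97) and Plcd1 (0.97) and for Mfap2 Clca3a1 (0.97), Serpine2 (0.97) and Tmem37 (0.97). Eln was most like Dlg2 (0.93), Serpina3n (0.92) and Podn (0.90), of which Dlg2 averaged only 1.22 CPM. Efemp1 was most like Il31ra (0.93), Rhoj (0.92) and Mir503hg (0.89), and Fbn2 most like Nfatc4 (0.96), Pgcka1 (0.95) and Atp9a (0.94). The likest genes were less close for Fbln2, with Axl (0.87), Cyba (0.86) and Tubb2b (0.86), and for Fbln1, with Zcchc17 (0.85), Iffo1 (0.83) and Eif1b (0.82).

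A further list held 51 other genes of the elastic fibre and microfibril, of which 43 were tested: latent TGF-beta binding proteins, emilins and other microfibril-associated proteins, lysyl oxidases, ADAMTS-family proteins, fibrillin processing enzymes and partners, and enzymes that cleave elastin or fibrillin. None of the 43 passed the threshold in a dose test, and none had an unadjusted p under 0.05 in the fits with dose alone. The 5 with the highest level per length over all 18 libraries were Lox (320 CPM per kb), Bgn (175), Loxl1 (119), Hspg2 (74.9) and Mmp14 (72.8). Over the 15 libraries Hspg2 stood at 58.3, and the order was Lox (311), Bgn (149.6), Loxl1 (121), Mmp14 (75.6) and Ltbp2 (70.8). Lox and Loxl1 encode lysyl oxidases that cross-link elastin, and Loxl1 had the smallest p of the list at 30 µM (log2 fold change 0.15 ± 0.082, interval -0.020 to 0.32, unadjusted p = 0.0796, edgeR). At 10 µM the smallest p belonged to Adamtsl4, which encodes a fibrillin-binding protein (-0.23 ± 0.19, unadjusted p = 0.233, edgeR). Between the doses and over all 3 doses it belonged to Mmp9, a gelatinase gene (0.64 ± 0.32 for 30 µM against 10 µM, unadjusted p = 0.0570, edgeR).

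With the replicate number, 19 of the 43 passed, beside 12.6% of all genes. They comprised 4 of 5 lysyl oxidases, 4 of 6 cleaving enzymes, 4 of 10 processing genes and partners, 3 of 7 ADAMTS-family genes, 3 of 11 emilins and other associated proteins and 1 of 4 latent TGF-beta binding proteins. Without control replicate 6, 29 of the 43 passed, beside 23.3% of all genes. The smallest adjusted p (edgeR) belonged to Ctsk, which encodes the elastin-cleaving protease cathepsin K (5.01e-08). Ctsk stood at 8.35, 13.02 and 12.3 CPM in the libraries numbered 1 (control, 10 µM, 30 µM) and at 2.19, 2.09 and 2.01 CPM in those numbered 6, and its number means spanned 6.02-fold, with those of numbers 5 and 6 lowest as for Mfap2 and Mfap5.

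Dcn, which encodes decorin, a small proteoglycan that binds collagen and microfibrils, followed (adjusted p = 6.61e-06, edgeR). It was highest in the libraries numbered 5 (218, 225 and 185 CPM) and lowest in those numbered 3 (64.6, 63.9 and 67.8 CPM), and those numbered 6 held 80.9, 78.3 and 40.5 CPM. Thsd4, an ADAMTS-like protein of microfibrils (2.75e-05, edgeR), went the other way from Mfap2, with means of 1.34 CPM in number 1 and 5.10 CPM in number 6. Adamtsl3 (1.85e-05, edgeR), another ADAMTS-like gene, was highest in number 6 (mean 170 CPM) and lowest in number 4 (105 CPM). Itgb3, an integrin chain that binds fibrillin (0.00033, edgeR), was also highest in number 6 (50.6 CPM) and was lowest in number 5 (29.4 CPM).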

How the data were processed

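Total RNA libraries were made with a stranded, ribosome-depleting TruSeq kit and read as paired ends. Raw counts, as deposited, were read pairs assigned to each Ensembl gene, not normalised. The submitters' processing notes name FastQC, HISAT2, SAMtools 1.2, HTSeq and the human build GRCh38, although the gene identifiers in the table are those of mouse. The use made of that build, the strand setting and the annotation release are not given in the sources used here. Dose and replicate number were taken from the sample titles, and 0 count columns matched no sample. Entries for uncounted reads entered neither library sizes nor tests: 6.85% to 15.5% of pairs per library lay outside genes, 0.503% to 1.64% were ambiguous, 4.79% to 13.1% were of low alignment quality, 1.72% to 54.2% were unaligned and 5.59% to 20.2% aligned to several places.

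GENCODE M39 (GRCm39) gave gene names and positions and named 51731 of 55487 identifiers. Promoters came from RefSeq on GRCm38.p6. Models were fitted to the counts with edgeR 4.0.16 under R 4.3.3 (filterByExpr, TMM, robust quasi-likelihood fits over all 18 libraries). Dose was the only term in the dose tests, and the test of replicate number was additive with dose. Contrasts were tested two-sided. Correlations used log2 CPM with a prior count of 2. Alternatives were other size factors, library totals, no filter, at least 10 counts in every library, DESeq2 1.42.0, voom with quality weights in limma 3.58.1, only the groups compared, a replicate block, and libraries left out. Scripts were tested on simulated data.

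The members and lists were chosen with earlier results of these data known. Named genes were the 10 members and, of the further list, in each test the 5 past the threshold with the smallest p or else the 1 with the smallest p, the 5 with the highest level per length, and for each member the 3 most correlated genes. Ensembl identifiers were matched to each symbol 1 to 1.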

Additional observations from a re-analysis of the deposited data

Results flagged for a closer look

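Within the 6 libraries of a dose, 1 of the 30 sets examined (10 members at 3 doses) had a library far from the others by Dixon's test, where chance gives about 1 in 20, or 1.5 of 30. It was Efemp1 in 30 µM replicate 6, at 32.8 CPM against 76.4 to 96.2 CPM in the other 5. This library had 37.9% of its pairs unaligned, and the part of that in the value was not tested. The libraries numbered 6 of control and 10 µM were also the lowest of their doses for Efemp1, at 53.4 and 55.5 CPM.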

How the results depend on the processing

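No alternative brought a member or a gene of the further list past the threshold in a dose test (29 alternatives for each contrast and 28 for any difference). With the replicate number, 6 to 9 of the 10 members passed in 26 alternatives. The further list kept within 1.5 times its 19 genes in 22 of 26 and gave 35 with voom quality weights, 29 without the 3 libraries with more unaligned reads (control replicate 1, 10 µM replicate 6 and 30 µM replicate 6), 31 without the first and last of them, and 13 to 29 with single libraries left out. Alternatives called 5.65% to 43% of all genes by number, and the cause of these shifts was not tested.

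Signs of the small dose changes were not steady. At 10 µM, voom quality weights turned the log2 fold changes of Eln to 0.20, Fbn2 to 0.051, Fbln1 to -0.0073, Fbln5 to 0.020, Efemp2 to 0.043 and Mfap2 to 0.12. Without the 3 libraries, Eln turned to 0.19, Fbn2 to 0.069, Fbln1 to -0.034, Fbln2 to -0.0052, Fbln5 to 0.025, Efemp2 to 0.059 and Mfap2 to 0.19. Without 2 of them (control replicate 1 and 30 µM replicate 6), the values were 0.0027, 0.054, -0.058, -0.020, 0.057, 0.011 and 0.018 in the same order. Library totals turned Eln to 0.0046, and no filter turned Eln to 0.0046 and Efemp2 to 0.00070. At 30 µM, Fbln5 turned to 0.056 with voom, 0.022 without 3 libraries and 0.026 without 2, and Efemp1 to 0.12, 0.13 and 0.14. With single libraries left out, the ranges at 10 µM were Eln -0.22 to 0.19, Fbn1 -0.048 to 0.082, Fbn2 -0.14 to 0.049, Fbln1 -0.063 to 0.092, Fbln2 -0.025 to 0.13, Fbln5 -0.080 to 0.052, Efemp1 -0.015 to 0.17, Efemp2 -0.065 to 0.039, Mfap2 -0.26 to 0.12 and Mfap5 -0.025 to 0.37. Those that changed sign at 30 µM were Fbn2 -0.028 to 0.16, Fbln5 -0.068 to 0.077, Efemp1 -0.11 to 0.14, Mfap2 -0.085 to 0.23 and Mfap5 -0.027 to 0.39.

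The replicate number as a block gave 0 members and 0 genes of the further list in every dose test, so it changed no call. At 30 µM the log2 fold change was then 0.18 (-0.0015 to 0.36) for Eln, 0.20 (0.00079 to 0.39) for Fbln2 (adjusted p = 0.656 for both, edgeR) and 0.070 (-0.14 to 0.28) for Mfap5, and Eln at 30 µM against 10 µM was 0.19 (0.014 to 0.37, adjusted p = 0.820, edgeR). The unadjusted p (edgeR) at 30 µM was 0.0518 for Eln and 0.0492 for Fbln2, where 6.76% of all genes were under 0.05. Between the doses it was 0.0365 for Eln, where 4.24% of all genes were under 0.05. Within numbers, Efemp1 was higher and Efemp2 lower at 10 µM than in control in 6 of 6. These counts were picked from those of all 10 members at both doses, and the share over all genes was not counted. The block fit gave log2 fold changes at 10 µM of 0.068 ± 0.092 for Efemp1 (unadjusted p = 0.472, edgeR) and -0.021 ± 0.045 for Efemp2 (unadjusted p = 0.648, edgeR). With the block and without the 3 libraries, Fbln1 at 10 µM turned to -0.069, and Eln at 30 µM against 10 µM was 0.20 (0.050 to 0.34). In that fit 4, 8 and 8 members were above 0 at 10 µM, at 30 µM and between the doses, beside 48.5%, 48.3% and 51% of all genes. Deviations from dose means correlated over 0.1 in 16 of 18 same-numbered pairs (-0.10 to 0.71) and 27 of 90 others, and 14 of 18 libraries correlated best with one of their own number. Without the 3 libraries these were 12 of 13, 23 of 62 and 8 of 15, a hint from the data and not from the design.

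Mean levels per length moved with the longest transcript as the divisor, to 682 CPM per kb for Fbln2, 93.0 for Efemp2, 46.7 for Fbn2, 41.1 for Fbln5, 31.6 for Efemp1, 8.88 for Fbln1, 6.24 for Mfap5 and 5.51 for Eln. Depth limits Mfap2 most, with as few as 13 pairs in a library.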
